A study of Homo sapiens with 16 samples.

Results

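The comparison described here set siRFX7 against siControl transfection while p53 was active, in U2OS cells, a human osteosarcoma line. It took 8 of the 16 poly(A) RNA libraries of the study: 4 from cells transfected with siRFX7 and 4 from cells transfected with siControl, all of them exposed for 24 h to 10 µM of Nutlin-3a. The other 8 libraries held the same transfections, 4 each, under the solvent DMSO, and are used only where the knockdown effect is set against the effect without Nutlin-3a. All 20335 genes in the authors' deposited table for that pair of groups are covered, out of 23396 genes present in any of the study's 4 tables. Effects of the transfected RNAs apart from lower RFX7 were not tested. Sequence and number of the small interfering RNAs behind the name siRFX7, and of those behind siControl, are not given in the sources used here. Whether the 4 libraries of a group came from separate cultures is not stated either, so p-values measure only the spread between these libraries, which may be technical.

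RFX7 is a transcription factor of the regulatory factor X family, whose members bind DNA through a winged-helix domain. It is known as a factor that becomes active when p53 is active and that raises genes which hold back growth signalling, among them PIK3IP1, PDCD4 and PNRC1. Nutlin-3a occupies the pocket by which MDM2, the ubiquitin ligase that keeps p53 low, grips p53, so that p53 accumulates without DNA damage.

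RFX7 RNA was reduced in the siRFX7 group, and PIK3IP1, the transmembrane inhibitor of phosphoinositide 3-kinase (PI3K), was reduced with it. The group level of RFX7 (ENSG00000181827, chr15:56087280-56243266, minus strand in GENCODE 29 on GRCh38) was 2249 normalised reads in siControl and 436 in siRFX7, or 19.4% of control. Its log2 fold change in the authors' deposited table was -2.37 ± 0.07 (the authors' standard error, as for every ± below), and the adjusted p 8.42e-280. PIK3IP1 (ENSG00000100100, chr22:31281593-31292534) stood at 359 in siControl and 63.2 in siRFX7, 17.6% of control. Its log2 fold change was -2.50 ± 0.15 in the authors' deposited table (adjusted p 1.53e-58). The tables hold no value of a single library, so group levels were computed from the authors' base mean, which averages the normalised reads of the 8 libraries, and the log2 fold change, and an overlap of single libraries cannot be given. In these bulk samples, fewer cells that express a gene and less RNA per cell cannot be told apart.

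In the authors' deposited table, 6625 of the 20335 genes (32.6%) had an adjusted p under 0.05, 3122 of them lower (15.4% of the genes tested) and 3503 higher (17.2%) in siRFX7. Most of the changes were small. The median size was 0.29 on the log2 scale, and 2605 of the called genes (39.3%) changed by less than 0.25. A change of at least 0.5 was seen in 805 lower and 615 higher genes, and a change of at least 1 in 170 lower and 128 higher genes. The share of genes called rose with the level, from 9.22% of 7158 genes whose base mean was under 100 to 52.7% of 6348 genes whose base mean reached 1000. The median standard error of these sets was 0.34 and 0.049. LRFN5, at an adjusted p of 0.04996, was in the authors' deposited table the last gene inside the threshold, and KIRREL2 with 0.0501 the first one outside it.

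**Figure D1:**
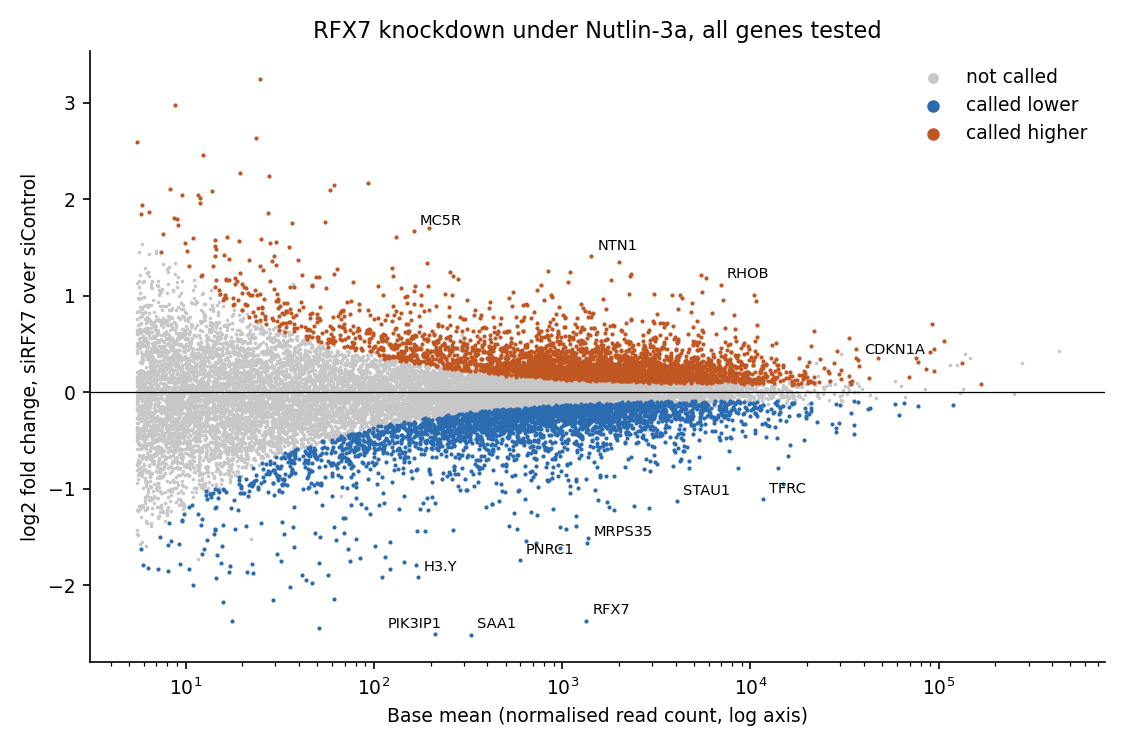
Log2 fold change of siRFX7 over siControl under Nutlin-3a (vertical axis) against the base mean in normalised reads (horizontal log axis) for the 20335 genes tested; grey points were not called, blue points were called lower and orange points called higher at an adjusted p of 0.05. RFX7, PIK3IP1 and SAA1 lie lowest among the genes whose base mean reached 100, between -2.51 and -2.37.

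Among called genes whose base mean reached 100, SAA1, an acute phase apolipoprotein, fell furthest. It had a log2 fold change of -2.51 ± 0.11 in the authors' deposited table, followed by PIK3IP1 and RFX7. Next came H3.Y, a primate-specific histone H3 variant, at -1.91 ± 0.19, and the pseudogene EEF1A1P11 at -1.83 ± 0.18 in the same authors' deposited table. Both resemble other genes closely, and how reads were split between such copies is not given. PNRC1, a cofactor of mRNA decapping, fell by 1.74 ± 0.08 in the authors' deposited table, and the cleavage-stage zinc finger gene ZSCAN4 had -1.71 ± 0.18. MXD4, a repressor that competes with MYC for its partner MAX, fell by 1.61 ± 0.07 there. Below -1.4 in the authors' deposited table were also the adenylate kinase AK9 (-1.60), the mitochondrial ribosomal protein MRPS35 (-1.56), the secreted WNT antagonist SFRP1 (-1.56), the cyclin CCNG2 (-1.54), the proton pump subunit ATP6V0D1 (-1.51), the ligand WNT10B (-1.44) and the small GTPase RRAD (-1.44).

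The 10 most negative test statistics put abundant genes first. RFX7 led, followed by MRPS35, whose level was 2026 in siControl and 687 in siRFX7. STAU1, which binds double-stranded RNA, went from 5559 to 2545, with -1.13 ± 0.04 in the authors' deposited table. TFRC, the transferrin receptor that takes up iron, went from 15977 to 7393, with -1.11 ± 0.05 in the authors' deposited table. RFX5, a factor of the same family that drives MHC class II genes, went from 3339 to 1478 and had -1.18 ± 0.04 in the authors' deposited table. ATP6V0D1, PDCD4 and the ubiquitin ligase RNF115, the proteoglycan SPOCK1 and the kinase JAK1 completed the set. In the authors' deposited table RNF115 stood at -1.39 ± 0.06, SPOCK1 at -1.42 ± 0.06 and JAK1, which signals from cytokine receptors, at -0.78 ± 0.03.

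Many of these lowered genes shared a stretch of 7 bases in their 3′ untranslated region (UTR). The heptamer GTATCTA, searched on the sense strand of annotated 3′ UTRs in GENCODE 29 (GRCh38), stood in 914 of 11342 protein-coding genes that had a base mean of 100 or more and a 3′ UTR (8.06%). Only the longest annotated 3′ UTR of each gene was searched. The heptamer was picked from an earlier scan of these same fold changes, so the shares below describe the genes and are no independent evidence. Stretches around it are shown for RFX7, which carries it too, and for lowered genes of different functions, with the heptamer in capitals:
RFX7 (chr15:56093305-56093332, minus strand): aacatgtagcacactGTATCTAaagaca
SAA1 (chr11:18269925-18269952, plus strand): gagggtacacaatggGTATCTAataaat
MRPS35 (chr12:27755490-27755517, plus strand): tgatatatgtgatcaGTATCTAatttga
STAU1 (chr20:49114216-49114243, minus strand): gagaatttctcaattGTATCTAgttaaa
ATP6V0D1 (chr16:67438237-67438264, minus strand): gttacagccgctgatGTATCTAagaagc
TFRC (chr3:196050410-196050437, minus strand): gcttgaagatcgttaGTATCTAacatgt
WNT10B (chr12:48965972-48965999, minus strand): ccctggaagcttaaaGTATCTAcctgga
CCNG2 (chr4:77166680-77166707, plus strand): taagttgaaaactcaGTATCTAtggaat
RNF115 held 3 copies, STAU1 and WNT10B held 2 each, and PIK3IP1, PNRC1, MXD4, PDCD4, SESN3 and DDIT4 held none.

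The share of heptamer carriers followed the size of the decrease. Of the 49 genes with a log2 fold change under -1, 33 (67.3%) carried it, against 104 of 275 genes (37.8%) between -1 and -0.5 and 177 of 1086 (16.3%) between -0.5 and -0.25. Genes between 0 and 0.25 carried it in 5.61% of cases, and 0 of the 27 genes above 1 did. Of the 914 carriers, 397 (43.4%) were called lower and 152 (16.6%) higher, while 18.3% of the genes without it were called lower. Carriers had longer 3′ UTRs, with a median of 3297 bases against 1333 in the others. The sequence of the transfected RNAs was not used here, and the part of the motif in any single gene's decrease was not tested. Not every carrier is marked as one in the text below.

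The 33 carriers and the 16 other genes under -1 had unlike medians without Nutlin-3a. The difference of the effects under Nutlin-3a and DMSO was computed from the log2 fold changes of both of the authors' tables, which share no library, with a two-sided normal p adjusted by Benjamini-Hochberg over 19346 genes. It was called in 202 genes (1.04%), 160 of them more negative and 42 more positive under Nutlin-3a. The carriers had a median of -1.20 under Nutlin-3a and -1.18 under DMSO in the authors' deposited tables. The difference between treatments was called in 5 of them. Among these it was -0.95 for CCNG2 and -0.33 for BIRC3, but 0.49 for SNAPC1. Of the 16 genes without the heptamer, H3.Y and ZSCAN4 were not in the DMSO table. The other 14 had medians of -1.33 and -0.51 in the authors' deposited tables, and the difference was called in 8 of them. The 16 were ABCG1, AK9, H3.Y, MAF, MXD4, NAT16, PDCD4, PIK3IP1, PIK3R3, PNRC1, RFX5, RRAD, SESN3, TCIM, TXNIP and ZSCAN4, a list that follows from the size of the effect and the absence of the heptamer. Both sets were picked by their value under Nutlin-3a, which favours lower medians there than under DMSO. No test was made between these 2 sets.

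**Figure D2:**
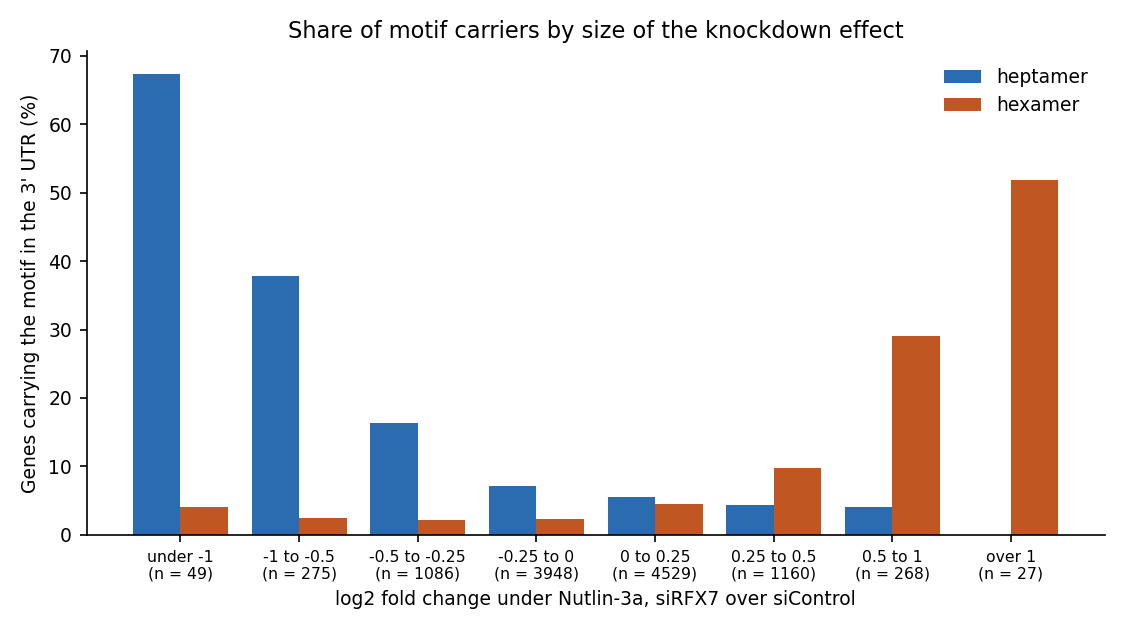
Percentage of protein-coding genes (base mean 100 or more, annotated 3′ UTR) that carry the heptamer (blue) or the hexamer (orange) in the 3′ UTR, by bins of the log2 fold change under Nutlin-3a, with the number of genes in each bin. Heptamer carriers make up 67.3% of the 49 genes under -1, and hexamer carriers 51.9% of the 27 genes above 1.

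Among the genes that rose, MC5R, a melanocortin receptor, had the highest log2 fold change where the base mean reached 100, namely 1.66 ± 0.15 in the authors' deposited table, from a level of 78.1 to 247. The pseudogene RPL22P16 followed with 1.61 ± 0.19 in the authors' deposited table, with the same doubt about shared reads as other copies. NTN1, the guidance cue netrin-1, rose by 1.41 ± 0.06 in the authors' deposited table, from 781 to 2077. PPP2R1B, a scaffold subunit of protein phosphatase 2A, rose by 1.35 ± 0.05 there, from 1126 to 2864. KLF2, a Krueppel-like factor, went from 495 to 1184 and rose by 1.26 ± 0.07 in the authors' deposited table.

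Abundant genes stood out by their statistics. MET, the receptor of hepatocyte growth factor, went from 3524 to 8016, with 1.19 ± 0.04 in the authors' deposited table. CALU, a calcium-binding protein of the secretory pathway, went from 3289 to 7647, with 1.22 ± 0.04 in the authors' deposited table. RHOB, a GTPase of the endosome, went from 4386 to 9485, with 1.11 ± 0.04 in the authors' deposited table. TOMM20, a receptor of the mitochondrial import pore, reached 3237 from 1382, and RBPJ, the DNA-binding factor of NOTCH signalling, 2527 from 1126. MCFD2, a cargo receptor of the early secretory pathway, went from 6943 to 13920. FAM49B and the cytoskeletal protein EPB41L1 rose by 1.03 and 1.20 in the authors' deposited table. Between 1.15 and 1.25 in the authors' deposited table lay also NFATC2 (1.25), C1D (1.24), the mitochondrial phosphatase PTPMT1 (1.21), CDS1 (1.17) and the lysosomal amino acid transporter SLC36A1 (1.15).

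Genes that rose most carried another short motif, the hexamer GACGTA, more often than others. It stood in 536 of the 11342 genes (4.73%), on the sense strand of the 3′ UTR, and came from the same earlier scan. The share was 14 of 27 (51.9%) above 1, 78 of 268 (29.1%) between 0.5 and 1 and 9.83% between 0.25 and 0.5, against 2 of 49 (4.08%) under -1. Of the 536 carriers, 288 (53.7%) were called higher, against 24.4% of the genes without it. Carriers again had long 3′ UTRs, with a median of 3287 bases against 1390. Stretches around the hexamer (capitals) in 4 of the genes described above are, in GENCODE 29 on GRCh38:
MET (chr7:116797584-116797610, plus strand): ctaactggttttgtcGACGTAaacatt
NTN1 (chr17:9240209-9240235, plus strand): ctggagaaatgacgaGACGTAgctacc
TOMM20 (chr1:235111560-235111586, minus strand): ccatttaatctctgaGACGTAaatatg
RBPJ (chr4:26431959-26431985, plus strand): ctccccttttcccatGACGTAaataca
PPP2R1B, CALU, KLF2, RHOB and MC5R did not hold the hexamer in their longest annotated 3′ UTR. The 14 carriers above 1 had medians of 1.17 under Nutlin-3a and 1.11 under DMSO in the authors' deposited tables, and the normal test of the difference between treatments called 0 of them, with 2 at an unadjusted p under 0.05.

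Genes that hold back PI3K and its downstream kinase complex mTORC1 were split. Of 18 such brakes in the table, 5 fell, 6 rose and 7 did not pass the test, with a median of 0.05, against -0.01 over all genes. Most of the decreases were larger than any of the rises. After PIK3IP1, SESN3, a sestrin that inhibits mTORC1, went from 755 to 289 and had -1.38 ± 0.08 in the authors' deposited table. PIK3R3, a regulatory subunit of PI3K, went from 1034 to 427 with -1.28 ± 0.07 in the authors' deposited table. It was counted on the list of brakes, and whether it acts as one was not tested. DDIT4, which restrains mTORC1 through the TSC complex, went from 1124 to 658 with -0.77 ± 0.06 in the authors' deposited table. INPP5D, a lipid phosphatase, fell by 0.23 ± 0.07 there. Among those that rose were SESN1, TSC1, SESN2, PHLPP2 and NPRL3, the highest being SESN1 at 0.42 ± 0.05 in the authors' deposited table.

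Each of PIK3IP1, SESN3 and DDIT4 rose with Nutlin-3a in siControl, and the level reached in siRFX7 lay far below. DDIT4 went from 322 under DMSO to 1124 under Nutlin-3a in siControl, and from 457 to 658 in siRFX7. SESN3 went from 197 to 755 in siControl and from 233 to 289 in siRFX7. PIK3IP1 went from 69.3 to 359 in siControl and from 54.8 to 63.2 in siRFX7. The levels under DMSO were chained to those under Nutlin-3a through the authors' log2 fold changes, since each table was normalised on its own. The response tables share their Nutlin-3a libraries with the knockdown comparison, so no count of genes is drawn from setting them side by side.

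The effect of siRFX7 on these brakes under Nutlin-3a differed from its effect under DMSO for 5 of the 18, all more negative under Nutlin-3a. PIK3IP1 had the most negative difference of the named genes, -2.16 ± 0.24 (adjusted p 1.4e-15), with -0.34 ± 0.19 under DMSO in the authors' deposited table (adjusted p 0.149). For SESN3 the difference was -1.63 ± 0.14, with 0.24 ± 0.11 under DMSO in the authors' deposited table. DDIT4 was called in opposite directions, since it rose by 0.50 ± 0.08 under DMSO in the authors' deposited table and had a difference of -1.28 ± 0.10. PIK3R3 had a difference of -0.92 ± 0.09, and SESN2, higher under both treatments, one of -0.32 ± 0.07.

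**Figure D3:**
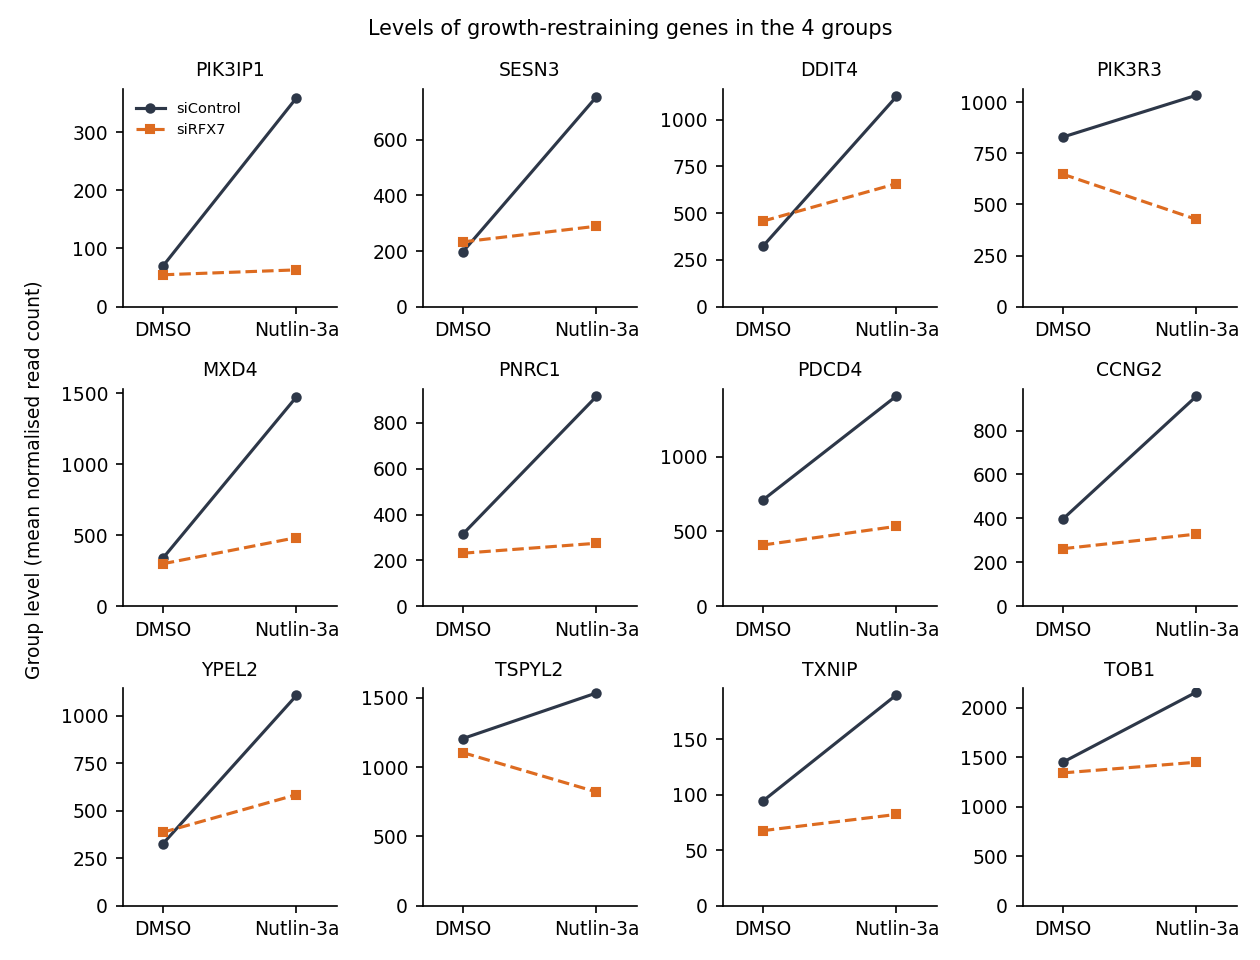
Group levels in normalised reads (vertical axes from 0) of 12 genes from the lists on growth signalling and proliferation. Shown are siControl (dark circles) and siRFX7 (orange squares) under DMSO and Nutlin-3a, as group means without single-library values or error bars. MXD4 reaches 1474 in siControl and 483 in siRFX7 under Nutlin-3a, while the groups lie close to each other under DMSO.

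Single members stood apart in the neighbouring growth circuits. In the network of MYC, MAX and the MXD repressors, 2 of 11 genes fell, 4 rose and 5 did not pass. Over all genes 15.4% fell and 17.2% rose. MXD4 went from 1474 to 483, and its difference between treatments was -1.44 ± 0.12, with -0.17 ± 0.09 under DMSO in the authors' deposited table. MYC itself was at 9518 in siControl and 9290 in siRFX7 and was not called. MXD3 fell by 0.32 ± 0.10 in the authors' deposited table, while MLXIP, MXD1, MNT and MAX rose there by between 0.17 and 0.36.

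PDCD4, which binds the helicase eIF4A and holds back translation, went from 1405 to 534, with -1.40 ± 0.06 in the authors' deposited table. It also fell under DMSO, by 0.80 ± 0.07 in the authors' deposited table, and the difference was -0.60 ± 0.09. Of the 12 genes of PDCD4 and the cap-binding complex eIF4F, 5 fell, 3 rose and 4 did not pass. The shares over all genes were 15.4% lower and 17.2% higher. EIF4G2 (-0.34 ± 0.04) and EIF4B (-0.33 ± 0.04) fell in the authors' deposited table, and the cap-binding protein EIF4E rose by 0.31 ± 0.06. All 3 carried the heptamer.

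PNRC1 went from 916 to 275, and its effect was larger under Nutlin-3a by a difference of -1.29 ± 0.12, with -0.45 ± 0.09 under DMSO in the authors' deposited table. It was the 1 decapping gene of 11 that fell, against 15.4% lower and 17.2% higher over all genes. DCP1A (0.36 ± 0.05), the helicase DDX6 (0.15 ± 0.05), DCP2 (0.13 ± 0.05), the exonuclease XRN1 and PATL1 rose in the authors' deposited table, and 5 genes did not pass. PNRC2, the paralog of PNRC1, was not called at 0.05 ± 0.05 in the authors' deposited table.

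Genes known for slowing proliferation fell or, with 1 exception, did not pass. Of 20 antiproliferative and quiescence genes, 10 fell, 1 rose and 9 did not pass, with a median of -0.23 under Nutlin-3a and 0.08 under DMSO, and the difference was called in 7, all more negative under Nutlin-3a. CCNG2, a cyclin of arrested cells and a heptamer carrier, went from 957 to 328, with -1.54 ± 0.07 in the authors' deposited table. TXNIP, the thioredoxin inhibitor that limits glucose uptake, went from 190 to 82.2, with -1.21 ± 0.14 in the authors' deposited table. YPEL2 (-0.92 ± 0.07), TSPYL2 (-0.90 ± 0.06) and TOB1 (-0.57 ± 0.05), which tethers the deadenylase complex, followed in the authors' deposited table, and none of these carried the heptamer. The CDK inhibitor CDKN1B was the member that rose, by 0.26 ± 0.06 in the authors' deposited table.

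YPEL2 and the Krueppel-like factor KLF9 were called in the other direction without Nutlin-3a. YPEL2 rose by 0.25 ± 0.08 under DMSO in the authors' deposited table, and the difference was -1.17 ± 0.11. KLF9 fell by 0.35 ± 0.06 under Nutlin-3a and rose by 0.21 ± 0.07 under DMSO in the authors' deposited tables (difference -0.56 ± 0.09). TSPYL2 and CCNG2 fell under DMSO too, by 0.13 ± 0.05 and 0.60 ± 0.09 in the authors' deposited table, with differences of -0.78 ± 0.08 and -0.95 ± 0.12. BTG1, not called under Nutlin-3a at -0.06 ± 0.07, rose by 0.41 ± 0.08 under DMSO in the authors' deposited tables.

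Direct p53 targets were moved in both directions and by little. Of 29 in the table, 13 fell, 8 rose and 8 did not pass, with a median of -0.10. Over all genes 15.4% fell and 17.2% rose. FDXR, a mitochondrial reductase, fell by 0.57 ± 0.06, the ribonucleotide reductase subunit RRM2B by 0.48 ± 0.05 and TP53INP1 by 0.48 ± 0.05 in the authors' deposited table. The death receptor TNFRSF10B fell by 0.44 ± 0.04 and the repair factor XPC by 0.44 ± 0.05 in the authors' deposited table. SESN1, ZMAT3 (0.36 ± 0.04) and CDKN1A, the CDK inhibitor p21, rose in the authors' deposited table. CDKN1A went from 32889 to 41456 (0.33 ± 0.04 in the authors' deposited table), and MDM2 from 29538 to 27041 (-0.13 ± 0.03).

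The difference between treatments was called for 3 of these p53 targets. TP53INP1 had -0.46 ± 0.11 and CDKN1A -0.26 ± 0.05, since CDKN1A rose by 0.60 ± 0.04 under DMSO in the authors' deposited table. RRM2B had 0.26 ± 0.07, with -0.74 ± 0.05 under DMSO in the authors' deposited table, and it carries the heptamer. In the BCL2 family of apoptosis regulators, 4 of 16 genes rose and 2 fell, against 17.2% and 15.4% over all genes. Nothing is read from these counts about the family. PMAIP1 (-0.37 ± 0.07) and the survival factor MCL1 (0.32 ± 0.04) changed most in the authors' deposited table.

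Mitotic genes were mostly lower in siRFX7. Of 20 genes of the G2/M list, 16 fell, 0 rose (0 at an unadjusted p of 0.05 in the authors' DESeq2 test) and 4 did not pass, with a median of -0.17 under Nutlin-3a and 0.00 under DMSO, and the difference was called in 10, all more negative under Nutlin-3a. CCNA2, the cyclin of S and G2 phase and a heptamer carrier, went from 3715 to 2105, with -0.82 ± 0.04 in the authors' deposited table. The activator CDC20 of the anaphase-promoting complex fell by 0.34 ± 0.04, CDC25C by 0.39 ± 0.07 and the kinesin KIF20A by 0.30 ± 0.04 in the authors' deposited table. PLK1, the polo-like kinase, fell by 0.19 ± 0.04 under Nutlin-3a and rose by 0.16 ± 0.05 under DMSO in the authors' deposited tables. CCNB1 was not called under Nutlin-3a at -0.02 ± 0.05 and rose by 0.30 ± 0.04 under DMSO in the authors' deposited tables.

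Replication genes gave 9 lower, 3 higher and 8 not called of 20, with a median of -0.14. The shares over all genes were 15.4% lower and 17.2% higher. PRIM1, a primase subunit (-0.38 ± 0.06), FEN1 (-0.31 ± 0.05) and PCNA (-0.30 ± 0.04) fell in the authors' deposited table. E2F2 (0.64 ± 0.07), which carried the hexamer, and the cyclin CCNE1 (0.54 ± 0.04) rose there. The cyclin CCND1 fell by 0.36 ± 0.03 and had a difference of -0.33 ± 0.05 between treatments, with -0.03 ± 0.04 under DMSO in the authors' deposited table. Only RNA was measured, and the fraction of cells in each phase was not analysed here.

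Interferon-stimulated genes fell in siRFX7 or did not pass the test. Of 19 in the table, 11 fell, 0 rose (0 also at an unadjusted p of 0.05 by DESeq2) and 8 did not pass. Their medians were -0.32 under Nutlin-3a and -0.43 under DMSO, and the normal test of the difference called 0 of them, with 2 at an unadjusted p under 0.05. IFI44, which carries the heptamer, went from 109 to 35.5 and IFIT2 from 340 to 183, with -1.63 ± 0.21 and -0.90 ± 0.10 in the authors' deposited table. IFIT3 (-0.84 ± 0.09), IFIT1 (-0.95 ± 0.17) and the ubiquitin-like ISG15 (-0.67 ± 0.11) followed in the authors' deposited table. The MHC class I route of antigen presentation gave 9 lower, 0 higher (0 also at an unadjusted p of 0.05 by DESeq2) and 4 not called of 13, with a median of -0.24. The immunoproteasome subunits PSMB9 (-0.76 ± 0.09) and PSMB8 (-0.46 ± 0.07), HLA-F (-0.60 ± 0.12) and HLA-E (-0.44 ± 0.05) fell most in the authors' deposited table, and none of the 13 carried the heptamer.

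For inflammatory genes the effect often differed between treatments. Of 17 NF-kB subunits and inflammatory genes, 8 fell, 2 rose and 7 did not pass, with medians of -0.22 and 0.16, and the difference was called in 7, all more negative under Nutlin-3a. BIRC3, an inhibitor of apoptosis and a heptamer carrier, went from 4046 to 1762, with -1.20 ± 0.06 in the authors' deposited table. The chemokine CCL2 fell by 0.32 ± 0.08 under Nutlin-3a and rose by 0.32 ± 0.07 under DMSO in the authors' deposited tables (difference -0.64 ± 0.10). CXCL8 did the same, with -0.34 ± 0.14 and 0.41 ± 0.10 in the authors' deposited tables, and CCL20 with -0.72 ± 0.19 and 0.36 ± 0.14. NFKB1, the p105 precursor and again a heptamer carrier, fell by 0.44 ± 0.04 in the authors' deposited table.

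Among acute phase and complement genes 4 of 9 fell and 3 rose, against 15.4% and 17.2% over all genes. SAA1 went from 555 to 97.3 and its neighbour SAA2 from 78.7 to 23.1, with -2.51 and -1.77 ± 0.24 in the authors' deposited table. These genes are close copies of each other, so reads may have been shared. The complement component C3 fell by 0.87 ± 0.10 under Nutlin-3a and was not called under DMSO at -0.18 ± 0.13 in the authors' deposited tables, which makes a difference of -0.68 ± 0.17.

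Single immediate early genes changed in both directions. Of 15 factors of the AP-1 family and related genes, 6 fell, 3 rose and 6 did not pass. The shares over all genes were 15.4% lower and 17.2% higher, and nothing is read from the counts about these factors. FOS, a heptamer carrier, fell by 0.93 ± 0.14, JUNB by 0.60 ± 0.08 and ATF3 by 0.48 ± 0.06 in the authors' deposited table. RHOB was the highest, and its rise was larger under Nutlin-3a than under DMSO (0.51 ± 0.04 in the authors' deposited table) by a difference of 0.61 ± 0.06. KLF2 behaved alike, with 0.71 ± 0.08 under DMSO in the authors' deposited table and a difference of 0.55 ± 0.11. Of the 14 Krueppel-like factors 3 rose, 3 fell and 8 did not pass, against 17.2% higher and 15.4% lower over all genes. Nothing is read from these counts about the family.

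Stress response genes rose or did not pass. Of 19 genes of the integrated stress and unfolded protein response, 12 rose, 0 fell (1 at an unadjusted p of 0.05 by DESeq2) and 7 did not pass, with medians of 0.25 under Nutlin-3a and 0.18 under DMSO. VLDLR, a lipoprotein receptor, went from 486 to 1049, with 1.11 ± 0.07 in the authors' deposited table. CHAC1, which degrades glutathione, rose by 0.75 ± 0.06, SEL1L, an adaptor of endoplasmic reticulum degradation, by 0.66 ± 0.03 and the disulfide isomerase PDIA4 by 0.53 ± 0.04 in the authors' deposited table. Protein phosphatase 2A gave 7 higher, 1 lower and 7 not called of 15 subunits, and apart from PPP2R1B no called member passed 0.25 in size. PPP2R5D fell by 0.24 ± 0.04 under Nutlin-3a, with 0.04 ± 0.04 under DMSO in the authors' deposited tables.

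Cholesterol and fatty acid synthesis gave 13 lower, 2 higher and 7 not called of 22, with a median of -0.15. The mevalonate enzymes MVD (-0.59 ± 0.06), MVK (-0.41 ± 0.07) and IDI1 (-0.37 ± 0.07) fell in the authors' deposited table. Of 25 lysosome and autophagy genes, 10 fell, 2 rose and 13 did not pass, against 15.4% lower and 17.2% higher over all genes. ATP6V0D1 and ATP6V1A (-0.39 ± 0.04), subunits of the proton pump, fell in the authors' deposited table and both carried the heptamer, while ATG12 rose by 0.44 ± 0.05. Ribosomal proteins of the cytosol gave 11 lower, 2 higher and 9 not called of 22, with RPL6 at -0.45 ± 0.06 and RPL7 at 0.77 ± 0.10 in the authors' deposited table. Both have many pseudogene copies that can share reads.

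Signals between cells were changed in single members. Of 28 netrins, semaphorins, ephrins and receptors, 11 rose, 3 fell and 14 did not pass, and after NTN1 the rises of SEMA7A (0.59 ± 0.05) and NTN4 (0.58 ± 0.08) were the largest in the authors' deposited table. In the WNT list 6 of 22 rose and 3 fell. WNT10B went from 273 to 101 and SFRP1 from 1078 to 366, whereas WNT5A rose by 0.55 ± 0.08 in the authors' deposited table. In the TGF-beta list, 5 of 26 rose and 6 fell, with the inhibitor SMAD6 at -0.77 ± 0.09 and the receptor TGFBR2 at 0.50 ± 0.05 in the authors' deposited table. The list of collagens, laminins and integrins, which also held the proteoglycan SPOCK1, gave 5 higher and 7 lower of 27. SPOCK1, which like WNT10B and SFRP1 carried the heptamer, was lowest at -1.42 ± 0.06 in the authors' deposited table. ITGA6 (0.53 ± 0.05) and ITGA5 (0.51 ± 0.05) were highest among the called ones there. Over all genes 17.2% rose and 15.4% fell, and nothing is read from the WNT, TGF-beta and collagen counts about these lists.

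Other RFX factors and their partners changed unevenly. RFX5 fell more under Nutlin-3a than under DMSO, by a difference of -0.63 ± 0.06, with -0.54 ± 0.04 under DMSO in the authors' deposited table. RFXAP, a subunit that joins RFX5, rose by 0.84 ± 0.13 in the authors' deposited table and carried the hexamer. RFX1 rose by 0.20 ± 0.07 in that table, and RFX2 fell by 0.25 ± 0.08. RFXANK, its relative ANKRA2 and RFX3 did not pass. Ciliary genes, known targets of other RFX factors, gave 3 higher, 1 lower and 23 not called of 27, with a median of 0.00. In the microRNA machinery 4 of 12 rose and 1 fell, against 17.2% and 15.4% over all genes. Nothing is read from these counts about the list. The largest changes were TNRC6C at 0.68 ± 0.08 and DICER1 at 0.42 ± 0.04 in the authors' deposited table.

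**Figure D4:**
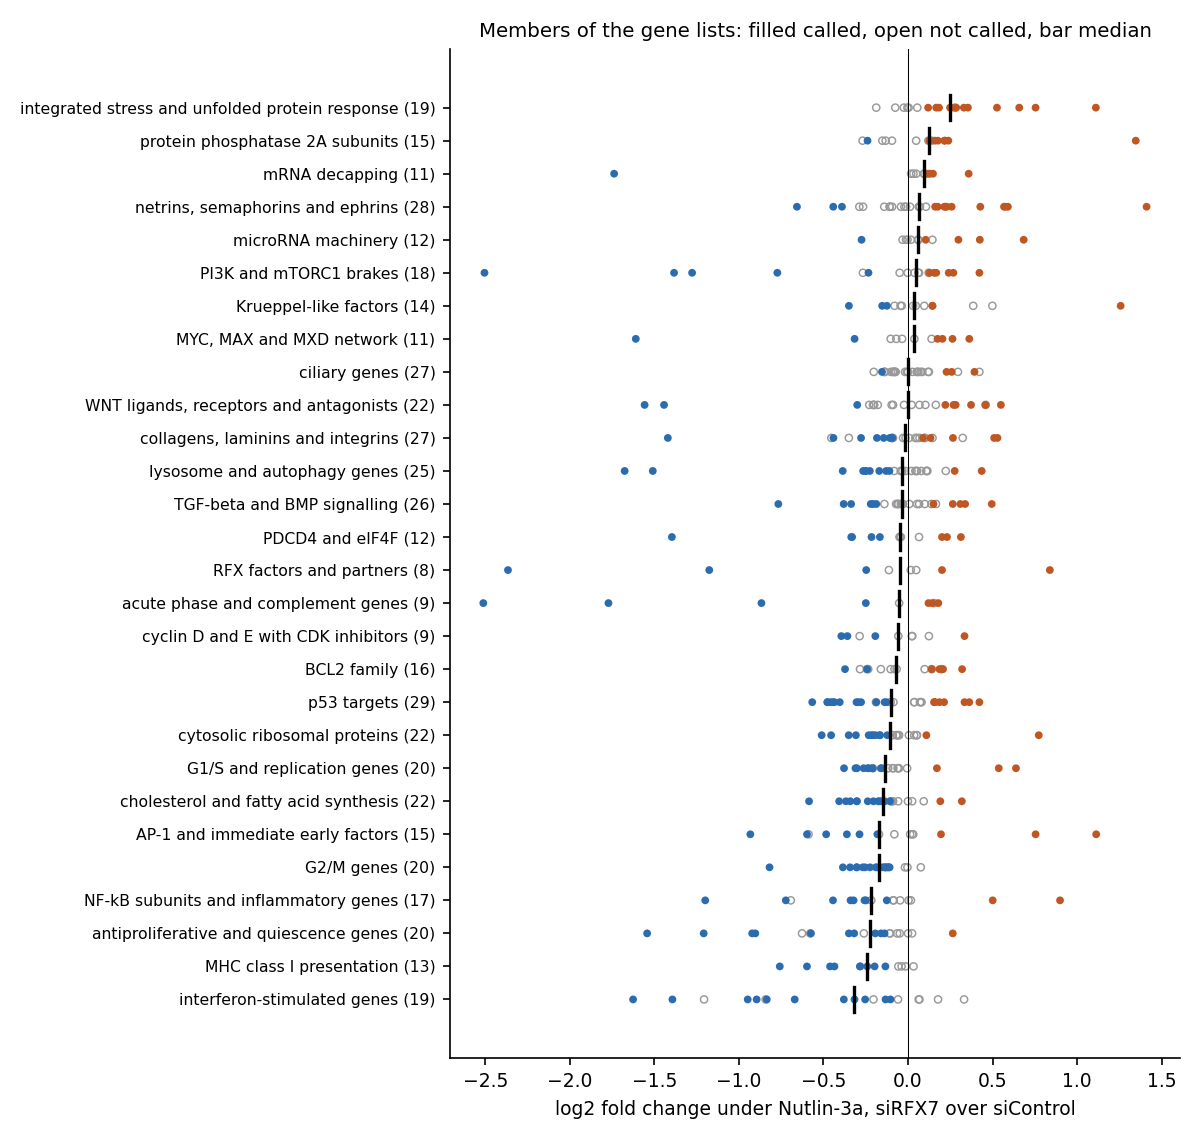
Log2 fold change of siRFX7 over siControl under Nutlin-3a for every measured member of 28 gene lists (number of members in brackets); filled points were called lower (blue) or higher (orange), open points were not called, and the black bar is the list median. Medians run from -0.32 for interferon-stimulated genes to 0.25 for the integrated stress and unfolded protein response.

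Set against the knockdown without Nutlin-3a, most changes were found again. Of the 6577 called genes that were also in the DMSO table, 5050 (76.8%) were called in the same direction there. Another 26 were called in the opposite one and 1501 not at all. Among all 19346 genes measured in both knockdown comparisons, 3879 were called higher and 3401 lower under DMSO. Across the 12928 genes whose base mean reached 100 in both tables, the correlation of the log2 fold changes was 0.896, as a description over genes, which are not independent replicates. Of the 160 genes with a more negative effect under Nutlin-3a, 102 fell under Nutlin-3a, 57 of these without a call and 24 with a rise under DMSO. Another 21 rose under both treatments, and 37 were not called under Nutlin-3a. MAF, a leucine zipper factor, was among the most negative, with -1.09 ± 0.13 under Nutlin-3a and -0.10 ± 0.12 under DMSO in the authors' deposited tables.

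The 42 genes with a more positive effect were fewer and their differences smaller. Of these, 27 rose under Nutlin-3a, 10 of them also under DMSO, 15 without a call and 2 against a decrease there, and 10 fell under both. HKDC1, a hexokinase-like enzyme, had the largest named difference, 0.68 ± 0.14, with 0.65 ± 0.10 under Nutlin-3a and -0.03 ± 0.11 under DMSO in the authors' deposited tables. SNAPC1, a subunit of the complex that starts small nuclear RNA transcription, fell less under Nutlin-3a (-1.12 ± 0.06) than under DMSO (-1.61 ± 0.06) in the authors' deposited tables. It carries the heptamer.

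**Figure D5:**
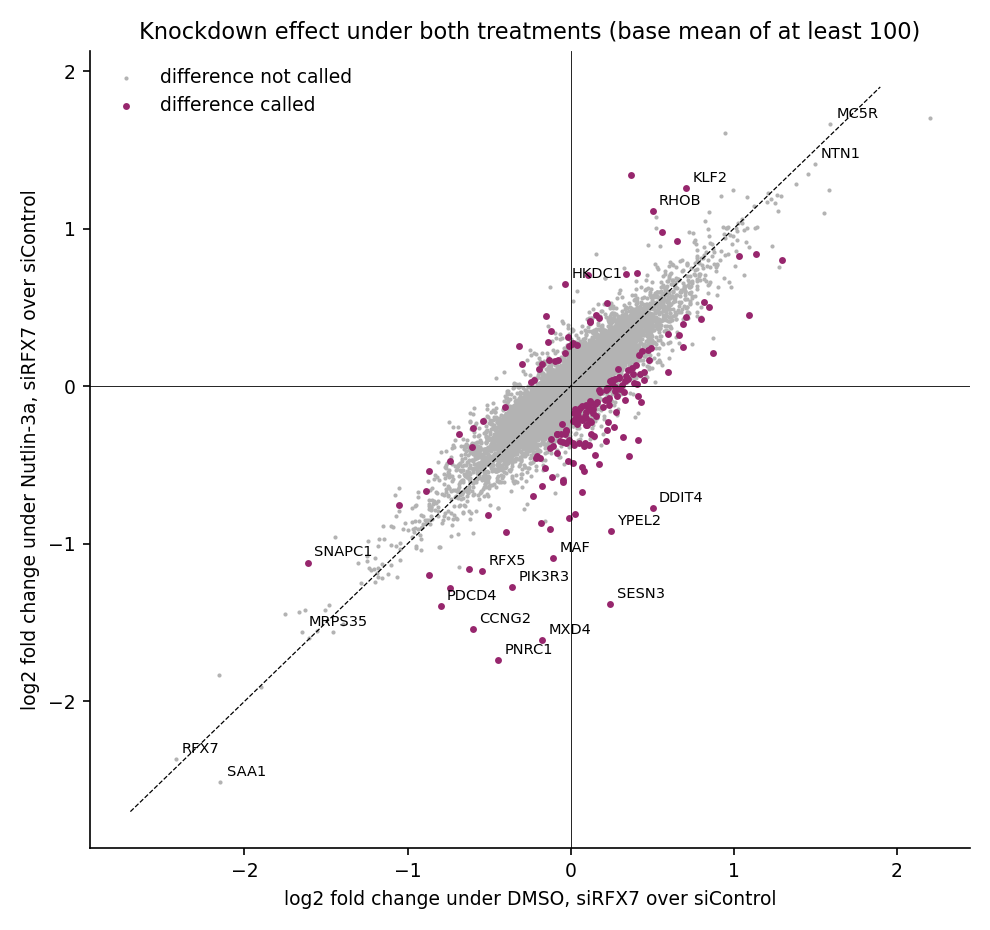
Log2 fold change of siRFX7 over siControl under Nutlin-3a (vertical axis) against that under DMSO (horizontal axis) for genes whose base mean reached 100 in both tables; purple points have a difference called at an adjusted p of 0.05, and the dashed line marks equal effects. RFX7, SAA1 and MRPS35 lie near the line, while MXD4, PNRC1 and SESN3 lie below it, at -1.61, -1.74 and -1.38 under Nutlin-3a.

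Promoters were searched for the X-box half-site GTTGCCA on both strands, in the 300 bases from 250 before to 50 after each start site (RefSeq, GRCh38.p14). It stood in none of the 14 promoters of PIK3IP1, PNRC1, MXD4, PDCD4, SESN3, DDIT4, RFX5, RFX7, CCNG2, PIK3R3, TXNIP, YPEL2, TSPYL2 and TOB1, which says only that these letters are not in that window. Of 35116 promoters in the table, 4.08% held it. Among 9089 protein-coding genes that had a promoter and a base mean of 100 or more, the share was 2.95% of those called lower, 2.75% of those called higher and 3.96% of those not called.

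As a check of the cells, 8 of 12 osteoblast lineage markers were in the table, with COL1A1, SPARC and RUNX2 among them, and SP7, BGLAP, IBSP and DLX5 were not. Of 10 blood markers only ITGAM was listed, and of 8 endothelial markers 4 were, their summed level being 126 in siControl and 174 in siRFX7. Of 10 epithelial markers 7 were listed, with a summed level of 32410 in siControl and 34456 in siRFX7, mostly KRT8 and KRT18. CDH1 rose by 1.10 ± 0.12 and EPCAM by 0.41 ± 0.11 in the authors' deposited table. The part of cells that express these markers in the other results was not tested.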

How the data were processed

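Poly(A) RNA of 16 libraries was sequenced after stranded library preparation, per the labels' protocols. The submitters' processing notes name bcl2fastq 2.19.1.403, Trimmomatic 0.39, FastQC 0.11.9, cutadapt 2.10, SAMtools 1.10, Picard, featureCounts 1.6.5, DESeq2 1.20.0 and the build hg38. The aligner, the annotation and the strand setting of the counting are not given in the sources used here. The files are 4 tables of the authors' DESeq2 comparisons, per the file headers. The base mean is a signal, the mean normalised read count that the authors computed over the 8 libraries of a comparison. Log2 fold changes with their standard errors are the authors' deposited values, and whether they were shrunken is not stated. The deposited Wald statistic, a score, equalled the log2 fold change over its standard error to within 1.10e-13. Each deposited p-value matched a two-sided normal p from that statistic to within 2.78e-15, and each adjusted p its Benjamini-Hochberg value over the table to within 1.44e-15.

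No model was refitted, since no values of single libraries were analysed. Base means of the Nutlin-3a knockdown table add up to 30056467 normalised reads per library on average, and the tables range from 27946376 to 35311111. Group levels were computed from base mean and fold change, which assumes equal group sizes, and the siControl level under Nutlin-3a from 2 tables agreed to an SD of 0.0061 on the log2 scale over 20334 genes, after a constant shift of -0.24 between the tables' normalisations. A gene counted as called below an adjusted p of 0.05. The difference between treatments was the difference of 2 deposited log2 fold changes with a two-sided normal p, adjusted by Benjamini-Hochberg over all genes in both tables, and its script was tested on simulated data. Analyses used Python 3.11.15 with pandas 2.3.3, numpy 2.4.6 and scipy 1.17.1. Positions and 3′ UTRs came from GENCODE 29 by gene identifier (20310 genes), promoters from RefSeq by symbol (11715 genes). The 3′ UTR of a gene was the longest among its basic protein-coding transcripts with a stop codon, and shorter forms were not searched.

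Named genes are RFX7 and PIK3IP1, the 15 lowest and 15 highest log2 fold changes among called genes that had a symbol and a base mean of 100 or more, and the 10 extremes of the statistic at each end. To these come up to 4 called members of largest size per list and the 8 extremes of the difference at each end. Further genes in the text were picked after their values were seen, and some genes that the rule covers are not reported here. The comparison, the 32 lists and the motifs were chosen with earlier results of these data known, and the list of DUX4-type genes was written after values of its members had been seen. Alternatives were a stricter adjusted p, minimum sizes, a test against a size of 0.25, a minimum level, centring, Benjamini-Yekutieli adjustment, protein-coding genes only and leaving out motif carriers.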

Additional observations from a re-analysis of the deposited data

Results flagged for a closer look

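By the test of the difference itself, the effect of siRFX7 differed between treatments in 45 genes that the text or its naming rule covers. This count follows in part from the choice of genes, since the rule takes in the most extreme differences at each end. Of the 45, 36 were named by the rule and 9 were further genes in the text, picked after their values were seen. Over all genes the difference was called in 202 of 19346 (1.04%). Each value below is the log2 fold change under Nutlin-3a minus that under DMSO, and the tables behind it share no library. Among growth brakes, decapping and antiproliferative genes it was below 0: PIK3IP1 -2.16, SESN3 -1.63, MXD4 -1.44, PNRC1 -1.29, DDIT4 -1.28, YPEL2 -1.17, CCNG2 -0.95, PIK3R3 -0.92, TSPYL2 -0.78, PDCD4 -0.60, KLF9 -0.56, BTG1 -0.48, TOB1 -0.46, SESN2 -0.32 and PNRC2 -0.30. The transcription factors MAF, RFX5, JUNB and MYC had -0.99, -0.63, -0.55 and -0.21. Among inflammatory genes and complement, CCL20 had -1.08, CXCL8 -0.75, C3 -0.68, CCL2 -0.64, BIRC3 -0.33 and NFKB1 -0.24.

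Among cell cycle genes and p53 targets the values were -0.35 for PLK1, -0.32 for CCNB1, -0.22 for PCNA, -0.33 for CCND1, -0.33 for CDC20, -0.31 for CCNA2, -0.28 for CCNE1, -0.27 for KIF20A, -0.26 for CDKN1A and -0.46 for TP53INP1, whereas RRM2B had 0.26. The phosphatase subunit PPP2R5D had -0.28. More positive under Nutlin-3a were also HKDC1 with 0.68, RHOB with 0.61, the secreted protease ADAMTS1 with 0.60, the pseudogene RPS6P25 with 0.59, WFDC21P with 0.58, KLF2 with 0.55, SNAPC1 with 0.49 and the tubulin TUBB4A with 0.47.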

How the results depend on the processing

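No paired analysis was possible because the tables hold group comparisons without single libraries, and leaving out a replicate could not be run for the same reason. The 6625 genes called in the knockdown comparison became 1420 with a size of at least 0.5 (615 higher, 805 lower), 298 with a size of at least 1 (128 higher, 170 lower) and 1138 when tested against a size of 0.25 (565 higher, 573 lower). The share of higher genes was 52.9% of all called and 43.3% and 43.0% under the size limits. The remaining alternatives gave between 4513 and 6630 called genes, among them 6004 without heptamer carriers and 5670 without carriers of either motif, the last one chosen after seeing the data. The 202 called differences between treatments became 125 at an adjusted p under 0.01 and 48 with a size of at least 0.5. A base mean of at least 100 in both tables, scaling of the statistics and centring gave 218, 215 and 202. Centring on the median left the direction and the call of all 151 named genes as reported. Among members whose base mean reached 100, the medians of 5 lists moved: antiproliferative genes to -0.16, the BCL2 family to 0.10, acute phase genes to 0.12, epithelial markers to 0.22 and DUX4-type genes to -0.85. For the BCL2 family and acute phase genes this turned the sign of the median.

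Errors rest on 4 libraries a group as the authors' model pooled them. Depth limits the low genes: under a base mean of 100 the median standard error was 0.34 and the called changes had a median size of 0.79, so smaller changes were mostly not detectable there. Counts by list are descriptions without a test of the list. They stand against 17.2% higher and 15.4% lower over all genes, and 38.9% called among protein-coding genes. Of the 11379 protein-coding genes whose base mean reached 100, 2929 were higher and 2315 lower, which are larger shares than over all genes. Against these, the counts of lists of abundant genes stand out less.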

Other observations

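Genes of the cleavage-stage programme that the factor DUX4 is known to switch on formed another lowered group, on a list written after values of its members had been seen. Of 26 such genes 16 were in the Nutlin-3a knockdown table. There 11 fell, 1 rose and 4 did not pass, with a median of -1.77. TRIM43 went from a group level of 99.6 to 22.6, PRAMEF12 from 57.3 to 14.1 and ZSCAN4 from 176 to 53.8. Their log2 fold changes were -2.14 ± 0.29, -2.02 ± 0.31 and -1.71 ± 0.18 (SE) in the authors' deposited table. DBET, a transcript of the repeat that holds DUX4, was the member that rose, from 1.99 to 15.6 (2.98 ± 0.71 in the authors' deposited table), and it also rose under DMSO. Only 4 of the 16 were in the DMSO table, and the difference between treatments was not computed for the others. Many of these genes have near-identical copies, and how reads were split between them is not given.

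The kinds of gene differed in how often they were called. Protein-coding genes gave 3036 higher and 2473 lower of 14158 (38.9% called), lincRNA genes 61 higher and 101 lower of 1085 (14.9%). Antisense genes gave 26 higher and 103 lower of 1104 (11.7%), and with a base mean of at least 100 they gave 18 higher and 48 lower of 167. Processed pseudogenes, whose reads may come from their parent genes, gave 287 higher and 347 lower of 2567 (24.7%).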
